A study of Danio rerio with 85 samples.

Results

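A set of 9 striated muscle genes was followed through *rnf2* mutant and wildtype zebrafish, in whole embryos and in single dissected hearts. The genes encode 3 sarcomeric actins (*acta1a*, *acta1b* and *actc1b*), 2 muscle creatine kinases (*ckma* and *ckmb*) and 4 proteins of the fast fibre sarcomere (the myosin heavy chains *myhz1.1* and *myhz2*, the regulatory light chain *mylpfa* and the troponin T *tnnt3b*). The genes were selected on earlier results of the same libraries, the comparison of mutant with wildtype hearts included, so their heart values are a description. Where a heart value is said to be called, it passed limma's threshold in the fit over all genes, which describes the value that helped to choose the gene and is no independent support for it. The lists of other muscle genes used below were also drawn up with earlier results of these data known. Calls and adjusted p-values given for their genes are likewise a description and no independent support. The whole embryo table lists all 9 of them among 30029 genes. The heart tables list 6 of them among 6877 genes at 1 day post fertilization (dpf), 9 among 11033 at 2 dpf and 9 among 11221 at 3 dpf. *myhz1.1*, *myhz2* and *tnnt3b* were not analysed at 1 dpf.

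Contraction of striated muscle comes from myosin heavy chains of the thick filament that pull on actin of the thin filament. Troponin and tropomyosin make this depend on calcium, and light chains tune the myosin head. Muscle creatine kinase moves phosphate between creatine and ATP, which buffers the energy supply of the sarcomere. In the zebrafish embryo, trunk and head muscles use mostly fast isoforms, whereas cardiomyocytes have their own myosins, troponins and light chains. Skeletal and cardiac actins are nearly identical proteins, and the embryonic heart also uses genes that are named after skeletal muscle. Rnf2 (Ring1b) is the catalytic subunit of Polycomb Repressive Complex 1, which keeps developmental genes silent outside their own tissue.

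RNA of whole embryos at 3 dpf came from 8 wildtype pools of the TLF strain and 7 pools of rnf2-/- embryos of a TU/TLF mixed background. The mutants were picked by phenotype from a heterozygous incross, and the controls were a wildtype strain, of the same genetic background by the study's methods. The labels name the backgrounds differently, and that difference in label cannot be told apart from genotype in embryos. Hearts came from siblings of a heterozygous incross in the TU/TLF mixed background that carried myl7:GFP, a fluorescent marker driven by a cardiomyocyte promoter, and hearts were dissected and sequenced one by one. At 1 dpf there were 9 wildtype (myl7:GFP_rnf2+/+) and 8 mutant (myl7:GFP_rnf2-/-) hearts. The 2 dpf table held 13 wildtype and 9 mutant hearts, and at 3 dpf there were 10 and 9. The mutation causes a premature stop codon and the mutants were zygotic, the offspring of heterozygous mothers. Mutant and wildtype hearts were compared within each age only, since the 3 ages were normalized separately.

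Embryo libraries held 4711185 to 12585927 reads on genes. Single hearts held 2453 to 83738 UMIs (unique molecular identifiers, which count each captured RNA molecule) at 1 dpf, 23523 to 109942 at 2 dpf and 27309 to 93653 at 3 dpf. Mutant hearts were deeper than wildtype hearts, with a median of 76771 against 39204 UMIs at 2 dpf and of 64280 against 39780 at 3 dpf. *rnf2* itself was at 587 ± 65.6 normalized counts in the 8 wildtype pools and 138 ± 14.5 in the 7 mutant pools (mean ± SD, as in all such values), with no overlap between the genotypes. In hearts it averaged 1.14, 6.20 and 4.74 normalized counts in wildtypes at 1, 2 and 3 dpf, and 0.109, 1.498 and 1.11 in mutants. Of 19 cardiomyocyte markers 18 were listed at 1 and 2 dpf and all 19 at 3 dpf, with none of the listed markers at 0 in all hearts of a group. The study kept only genes expressed in a set share of the hearts of an age, so this was nearly fixed in advance. Markers listed for blood, yolk, epidermis and hatching gland had counts at every age too.

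In whole embryos at 3 dpf the 9 muscle genes changed little. *acta1a* and *myhz2* were 1.35 and 1.36 times as abundant in *rnf2* mutants, *ckmb* was slightly lower, and the other 6 genes did not pass the test. The bulk measurement counts RNA of the whole embryo, so fewer muscle cells and less RNA per cell cannot be told apart.

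The actin *acta1a* (ENSDARG00000036371), a skeletal alpha actin, had between 3493 and 5069 normalized counts in the wildtype pools, with a median of 4117. In the mutant pools it ranged from 5389 to 5987, with a median of 5511. Every mutant pool was above every wildtype pool, and the mutant pools were also more alike than the wildtype pools, with a coefficient of variation of 4.35% against 12.8%. The mutant mean was 1.35 times the wildtype mean, a log2 fold change of 0.44 with a standard error of 0.0752 (limma's plain test over 22685 genes, adjusted p = 7.18e-05). *acta1b* (ENSDARG00000055618), its paralog, lay between 10936 and 15494 in wildtype pools, with a median of 12302, and between 9724 and 12916 in mutant pools, with a median of 11581. The groups of *acta1b* overlapped, the log2 fold change was -0.14, and its 95% interval ran from -0.33 to 0.05. *actc1b* (ENSDARG00000099197), an alpha actin that is named after the heart and abundant in zebrafish fast muscle, had a log2 fold change of 0.04 with an interval from -0.22 to 0.30.

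Of the creatine kinases, *ckma* (ENSDARG00000035327) averaged 37473 ± 4263 normalized counts over the wildtype pools (SD, n = 8) against 37778 ± 4989 over the mutant pools (SD, n = 7). *ckmb* (ENSDARG00000040565) spanned 37050 to 48257 over the wildtype pools (median 42837) and 34689 to 39680 over the mutant pools (median 36413). All 7 mutant pools lay below the wildtype median of *ckmb* and 4 of them below the lowest wildtype pool. Its log2 fold change was -0.20 with a standard error of 0.0859, which passed limma's plain test at the threshold of 0.1 (adjusted p = 0.0626). The call was lost when any of 5 pools was left out (wildtype replicate 2 or 13, mutant replicate 3, 5 or 7, adjusted p between 0.10 and 0.114). It was also lost in 5 of 9 other settings. Among these were limma with wildtype replicates 1 to 5 only (adjusted p = 0.167) and with no filter on low values (adjusted p = 0.191).

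Among the fast fibre genes, *myhz2* (ENSDARG00000012944) spanned 17245 to 26153 normalized counts over the wildtype pools (median 20642) and 25831 to 29624 over the mutant pools (median 28776). The mutant pools were above the highest wildtype pool in 6 of 7 cases, and wildtype replicate 13 alone reached into the mutant range. The log2 fold change of *myhz2* was 0.45 with a standard error of 0.0834 (limma's plain test, adjusted p = 0.000176). *myhz1.1* (ENSDARG00000067990) went the other way, with 89289 ± 11472 over the wildtype pools (SD, n = 8) against 77153 ± 10072 over the mutant pools (SD, n = 7). Its log2 fold change of -0.21 was not called by limma (adjusted p = 0.157). Of 9 other settings 5 called it, among them edgeR (adjusted p = 0.0626) and DESeq2 (adjusted p = 0.0545) on the recovered reads. It was also called by limma without wildtype replicate 11 (adjusted p = 0.0555) or without mutant replicate 8 (adjusted p = 0.0967). *mylpfa* (ENSDARG00000053254) and *tnnt3b* (ENSDARG00000068457) had log2 fold changes of -0.04 and -0.03, with intervals from -0.23 to 0.16 and from -0.22 to 0.17.

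**Figure D1:**
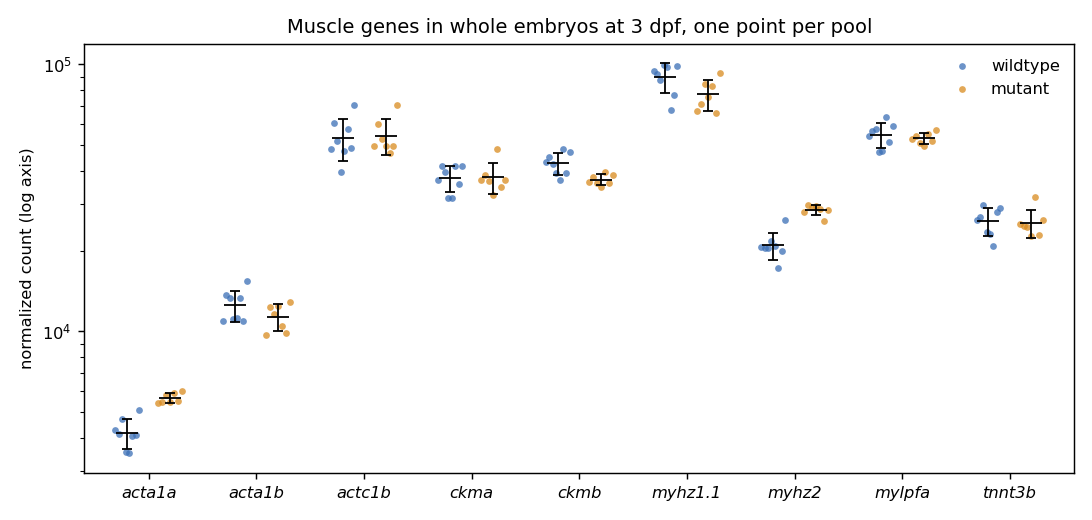
Normalized counts of the 9 muscle genes in whole embryos at 3 dpf, on a log axis. Each point is a pool of embryos (8 wildtype in blue, 7 *rnf2* mutant in orange) and the black marks are mean and SD; the mutant pools of *acta1a* all lie above the wildtype pools, and those of *myhz2* do so in 6 of 7 cases.

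limma's plain test called 28.7% of all genes tested higher and 27.3% lower in mutant embryos, against 2 of the 9 higher and 1 lower, so the share called was not above that of all genes. Against a log2 fold change of 1, limma's treat called 1.91% of all genes and 0 of the 9, with 0 of them under an unadjusted p of 0.05 and 0 called by edgeR or DESeq2 against the same fold. The median log2 fold change was -0.03 over the 9 genes and 0.03 over all genes. Together the 9 genes held a median of 3.85% of all reads in wildtype pools and 3.905% in mutant pools. In another setting every library was divided by its summed counts of genes outside the muscle and heart muscle lists. This also replaced the DESeq2 factors with a total-count scaling. The effect of leaving out muscle genes therefore cannot be told apart from that of the scaling. The median of all genes moved to 0.15 and the calls split into 8460 higher and 4244 lower in place of 6511 and 6192. *acta1a* and *myhz2* stayed called with log2 fold changes of 0.56 and 0.57, *ckmb* lost its call at -0.08, and *mylpfa* and *tnnt3b* changed sign to 0.08 and 0.09.

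The fast myosin heavy chains lie in a cluster of near-identical copies, between which short reads can be split wrongly, so the values of single copies are uncertain. The copy *myhz1.1l* (ENSDARG00000102414) averaged 465 ± 81.2 normalized counts over the wildtype pools (SD, n = 8) against 126 ± 33.9 over the mutant pools (SD, n = 7). Its log2 fold change of -1.90 passed the test against a fold (limma treat, adjusted p = 0.000244) and the genotypes did not overlap. *myhz1.2* fell from 33239 to 20347 and *myhz1.3* rose from 13453 to 21790, log2 fold changes of -0.71 and 0.70. These 3 copies were picked for this paragraph after their values were seen, and the copies of the cluster thus moved in both directions.

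Other muscle genes were taken from 6 lists (64 genes with a value). In embryos 7 of them rose, 26 fell and 31 were not called by limma's plain test, with a median log2 fold change of -0.09. The same test called 28.7% of all genes higher and 27.3% lower, and the counts by list below stand against that background. Of 17 other fast fibre sarcomere genes 8 fell and 1 rose, led by the fast troponin I genes *tnni2b.2* (1644 to 589 normalized counts, log2 fold change -1.50) and *tnni2a.2* (245 to 95.5, -1.36), which both passed the test against a fold (limma treat, adjusted p = 0.00396 and 0.0295). Of 9 slow fibre genes 5 fell and 0 rose, among them the slow myosin binding protein *mybpc1* (-1.09) and the troponin I *tnni1d* (-0.87). In the list of excitation and calcium handling 3 of 15 rose and 3 fell. The calcium pump *atp2a1* of fast fibres rose from 29508 to 39337 (0.42) while its paralog *atp2a1l* fell from 2420 to 1834 (-0.41). Of 10 genes of muscle energy metabolism 6 fell and 2 rose, with lactate dehydrogenase *ldha* (-1.17) and muscle glycogen phosphorylase *pygmb* (-0.60) at the lowest p. Of 10 muscle regulatory factors 2 fell and 1 rose, the myogenic factor *myod1* at -0.43 and the satellite cell factor *pax7a* at 0.21. The actins *acta2* of smooth muscle (-1.26) and *actc1a* of the heart (-1.05) fell too, with no overlap between the genotypes. Markers of other tissues moved in the same libraries: 15 of 19 cardiomyocyte markers and 4 of 4 cartilage markers were lower, and 6 of 7 blood, 5 of 7 epidermis and 3 of 4 hatching gland markers were higher. The summed level of the cardiomyocyte markers was not lower, with a median of 124887 normalized counts in wildtype and 142430 in mutant pools and overlapping ranges. The part of these tissues in the muscle values was not tested.

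In hearts at 1 dpf none of the 6 listed muscle genes was called between the genotypes by limma. *acta1b* had 34.4 to 69.0 normalized counts in wildtype hearts (median 42.03) and 8.82 to 49.4 in mutants (median 37.7), and 3 of 8 mutant hearts were below the lowest wildtype heart. The log2 fold change of *acta1b* was -0.63 with a standard error of 0.296. *acta1a* (9.39 ± 6.59 against 9.03 ± 6.79), *actc1b* (6.08 ± 5.07 against 4.99 ± 2.03) and *ckma* (9.38 ± 4.69 against 6.64 ± 3.54) were low in both genotypes (SD, 9 wildtype and 8 mutant hearts). *ckmb* was at 0 in 4 of 9 wildtype and 5 of 8 mutant hearts, and *mylpfa* in 6 and 5. limma called 0% of all genes higher and 0.0872% lower at this age, at an adjusted p under 0.01. It called 0 of these 6 genes (1 with an unadjusted p under 0.05, 0 called by edgeR or DESeq2) and 0 of 33 genes of the other muscle lists (6 with an unadjusted p under 0.05, 0 called by edgeR or DESeq2). With 2453 UMIs in the shallowest heart, 1 UMI is a large step for these genes. The 2 genes with the lowest p of each list, none of them called, were *tnni2a.4* and *mylz3* of fast fibres (log2 fold changes of -0.62 and -0.69), *tnnc1b* and *tpm2* of slow fibres (-0.46 and -0.24), *trdn* and *ryr3* of calcium handling (-1.34 and 0.64), *pgam2* and *pygmb* of energy metabolism (-0.83 and -0.90), the regulators *six1b* and *mef2d* (-0.68 and 0.85) and the actins *actc1a* and *actc2* (-0.44 and -0.55). Blood markers moved in the same hearts, with 3 of 8 called lower in mutants and summed levels of 52.9 to 246.0 in wildtype against 4.71 to 165.8 in mutants.

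At 2 dpf 1 of the 9 genes was called between the genotypes. *acta1a* had 22.1 to 54.1 normalized counts in the 13 wildtype hearts (median 36.1) and 31.7 to 134.7 in the 9 mutant hearts (median 72.6). The mutant hearts were above the wildtype median in 8 of 9 cases and above the highest wildtype heart in 6. The mutant mean was 2.09 times the wildtype mean (34.9 ± 11.3 against 72.9 ± 31.7, log2 fold change 0.99, standard error 0.163), and limma called it. In UMIs the genotypes did not overlap, with 11 to 49 in wildtype and 58 to 144 in mutant hearts, but the mutant hearts were also deeper. When all hearts were thinned to the smallest one the log2 fold change of *acta1a* was 0.97 and it was no longer called. limma called 0.381% of all genes higher and 0.254% lower at 2 dpf, and nothing is read from the 1 of 9 beside it, since the genes were chosen with this comparison known.

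The other 2 actins were not called at this age by limma on the deposited values. *acta1b* had 77.9 to 231.3 normalized counts in wildtype (median 154.5) and 90.5 to 222.3 in mutants (median 142.3), a log2 fold change of -0.08. The direction of *acta1b* was not stable at this age, since the log2 fold change was 0.41 and called with the number of detected genes as a covariate, and 0.43 and not called with the correction for repeated barcodes described with the UMI ceiling. *actc1b* had 0 to 21.6 in wildtype (median 4.03, 3 hearts at 0) and 3.23 to 24.8 in mutants (median 6.15), and its log2 fold change of 1.02 had a standard error of 0.340. The genotypes overlapped for both actins. Of the actins outside the 9 genes, smooth muscle *acta2* rose from 22.9 ± 15.4 to 58.0 ± 18.4 (log2 fold change 1.47, adjusted p = 1.80e-08 by limma), and cardiac *actc1a* fell from 247.5 ± 63.5 to 180.4 ± 49.1 (-0.46, adjusted p = 0.00474). The paralog *actc2*, at 24.8 ± 13.7 and 42.2 ± 19.98 (0.75), was not called. *acta2* and *actc1a* were the only calls by limma among 50 genes of the other muscle lists. *actc1a* averaged more normalized counts than *acta1b* in both genotypes (*acta1b* 160.0 and 152.1). Its lower level in the deeper mutant hearts is therefore subject to the UMI ceiling described below. The genes with the lowest p of the other lists were not called, namely *actn3b* and *tnnc2* of fast fibres (log2 fold changes of -0.57 and -0.60), *tnnc1b* and *myl10* of slow fibres (0.44 and -0.61), *atp2a1* and *srl* of calcium handling (-0.72 and -0.27), *gapdh* and *ckbb* of energy metabolism (-0.42 and -0.62) and the regulators *mef2aa* and *mef2ca* (0.44 and -0.44).

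*ckma* was close to *acta1b* in range at 2 dpf, with 79.2 to 193.4 normalized counts in wildtype (median 160.4) and 75.7 to 168.6 in mutants (median 131.9). The log2 fold change of *ckma* was -0.33 with a standard error of 0.109, and leaving out wildtype replicate 4, the lowest wildtype heart, made it a call at -0.41. Under the 9 other settings tried it ran from -0.36 to 0.03, and *ckma* was called under none of them. The direction of *ckma* was thus not stable at this age. *ckmb* averaged 6.45 ± 4.20 in wildtype and 7.77 ± 2.91 in mutants. The fast fibre genes were near 0. *myhz1.1* was at 0 in 6 of 13 wildtype and 4 of 9 mutant hearts with at most 2 UMIs in any heart, and *myhz2* was at 0 in 7 and 6. *mylpfa* (2.77 ± 2.92 against 2.13 ± 1.43) and *tnnt3b* (1.47 ± 1.65 against 1.06 ± 0.837) had log2 fold changes of 0.03 and -0.05. In these hearts 3 of 4 hatching gland markers and 3 of 7 yolk markers were called higher in mutants, with summed levels of 25.7 to 101.8 and 70.2 to 267.5 in wildtype against 41.996 to 191.1 and 114.97 to 514.3 in mutants. Their part in the values of *acta1a* was not tested.

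At 3 dpf *acta1b* had the largest log2 fold change of the 9 genes on the scale with a pseudocount of 1. The ratio of wildtype to mutant means was larger for *myhz2* (6.18) and *myhz1.1* (4.28), which had few UMIs. *acta1b* had 60.8 to 166.4 normalized counts in the 10 wildtype hearts (median 119.5) and 23.9 to 69.0 in the 9 mutant hearts (median 35.1). The mutant hearts were below the lowest wildtype heart in 8 of 9 cases, and mutant replicate 36 reached above wildtype replicate 18 only. The wildtype mean was 3.09 times the mutant mean (116.5 ± 27.2 against 37.7 ± 14.0), with a log2 fold change of -1.63, a standard error of 0.145 and a call by limma. In UMIs the wildtype hearts held 37 to 204 and the mutant hearts 26 to 72, although the mutant hearts were deeper. With any heart left out the log2 fold change stayed between -1.75 and -1.56, and *acta1b* stayed called under each of the 9 other settings tried.

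*acta1a* was lower in mutants at 3 dpf, whereas it was higher at 2 dpf. It had 14.8 to 32.5 normalized counts in wildtype (median 23.5) and 6.44 to 25.1 in mutants (median 11.2), and 7 of 9 mutant hearts were below the lowest wildtype heart. In UMIs the medians were alike, with 9 to 47 in wildtype (median 16.5) and 7 to 24 in mutants (median 17). The lower level thus appears after scaling for the greater depth of the mutant hearts. The log2 fold change was -0.92 with a standard error of 0.217, called by limma, but not when the hearts were thinned (-0.92) or when the number of detected genes was a covariate (-0.91). The difference between the ages was not tested, since the tables were normalized separately. The genotypes overlapped for *actc1b*, at 11.3 ± 8.16 in wildtype and 9.05 ± 5.71 in mutants (log2 fold change -0.23). Of the other actins *actc2* fell from 14.5 ± 7.86 to 3.70 ± 3.69 (-1.93, adjusted p = 4.69e-07 by limma), and *acta2* rose from 20.6 ± 9.75 to 33.03 ± 6.24 (0.76, adjusted p = 0.00396). *actc2* and *acta1a* thus had higher means in mutants at 2 dpf and lower means at 3 dpf, whereas *acta2* was higher at both ages.

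**Figure D2:**
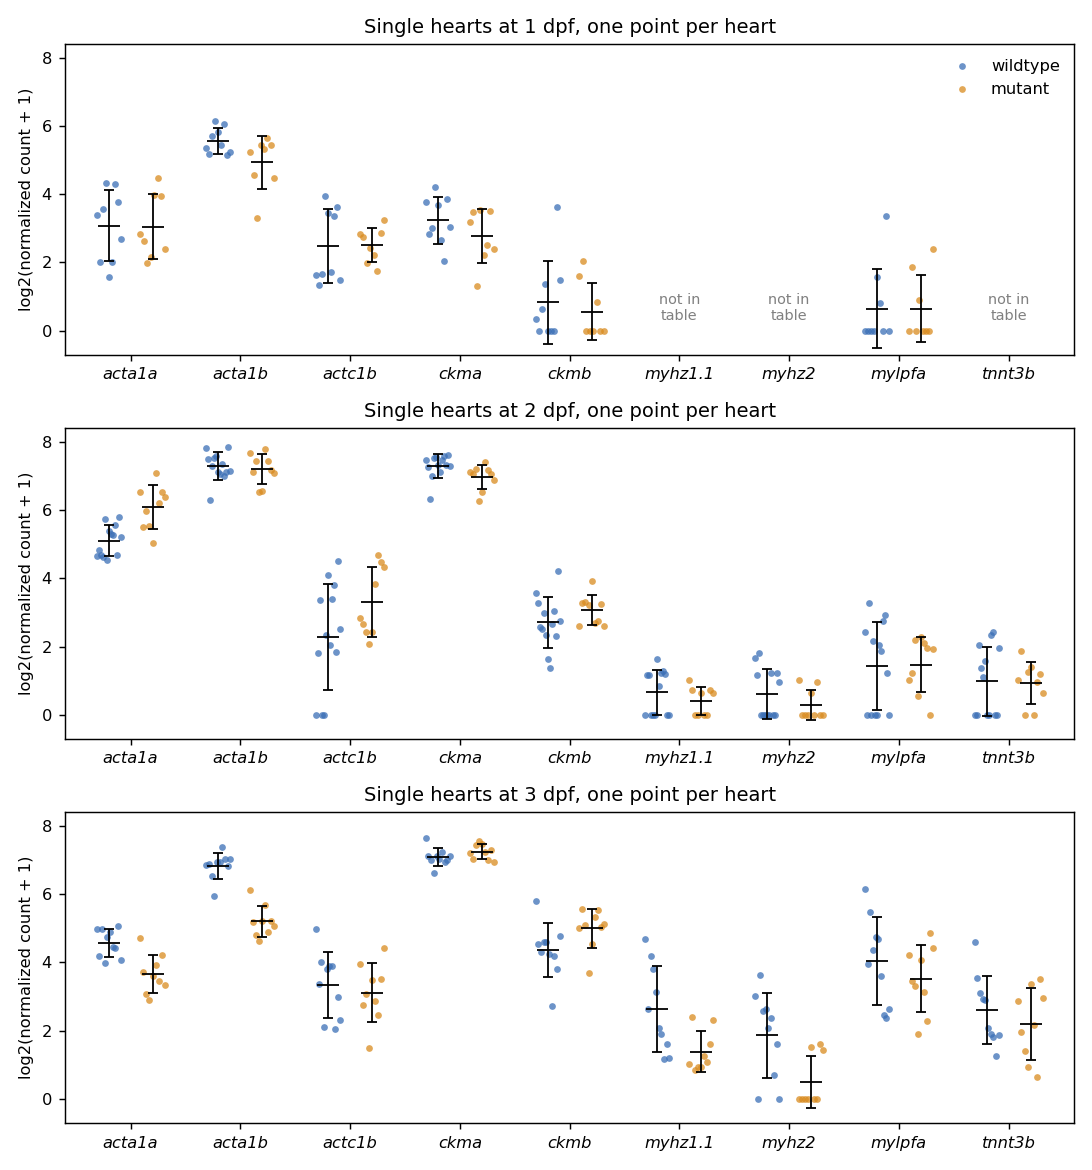
Levels of the 9 muscle genes in single hearts at 1, 2 and 3 dpf as log2 of the normalized count plus 1; each point is a heart (wildtype in blue, *rnf2* mutant in orange), the black marks are mean and SD, and the ages are not on a common scale. *acta1a* is higher in mutants at 2 dpf and lower at 3 dpf, *acta1b* is lower at 3 dpf in 8 of 9 mutant hearts than in any wildtype heart, and *myhz1.1*, *myhz2*, *mylpfa* and *tnnt3b* scatter widely in both genotypes.

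Neither creatine kinase was called at 3 dpf on the deposited values, but *ckma* was called at 0.65 with the correction for repeated barcodes. *ckma* had 97.0 to 199.6 normalized counts in wildtype (median 133.7) and 122.1 to 185.7 in mutants (median 151.1), with a log2 fold change of 0.16 and a standard error of 0.105. *ckmb* had 5.55 to 55.2 in wildtype (median 20.7) and 11.95 to 46.6 in mutants (median 33.5), and 8 of 9 mutant hearts were above the wildtype median. For *ckmb* the log2 fold change of 0.64 (standard error 0.211) was not called. It was called without wildtype replicate 15, the highest wildtype heart (0.80), without mutant replicate 39, the lowest mutant heart (0.80), and by edgeR (0.73). Among the other energy genes, the aldolase *aldoab* rose from 58.3 ± 11.3 to 90.4 ± 10.2 (0.64, adjusted p = 0.000134 by limma), while *pygmb* (-0.78) and the mitochondrial creatine kinase *ckmt2b* (10.8 ± 8.70 to 2.73 ± 2.31, -1.40, chosen after its value was seen) fell.

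The fast fibre genes had low and scattered counts. *myhz1.1* had 1.27 to 24.9 normalized counts in wildtype (median 4.25) and 0.817 to 4.30 in mutants (median 1.11), in UMIs 1 to 14 and 1 to 7. Its log2 fold change of -1.26 (standard error 0.351) was called, but the call was lost in 11 of 19 cases when a heart was left out (5 wildtype and 6 mutant hearts, log2 fold changes between -1.43 and -1.04 over all 19). It was also lost in 4 of 9 other settings, with the number of detected genes as a covariate (-0.67), with thinned hearts (-1.36), with a pseudocount of 0.5 (-1.43) and among genes with a mean of at least 1 (-1.26). *myhz2* was at 0 in 2 of 10 wildtype and 6 of 9 mutant hearts and reached 6 and 3 UMIs. Its log2 fold change of -1.35 (standard error 0.393) was not called, and became a call in 6 of 19 cases when a heart was left out. *mylpfa* had 4.15 to 69.5 in wildtype (median 17.1) and 2.76 to 27.96 in mutants (median 10.0), a log2 fold change of -0.52 with a standard error of 0.286. *tnnt3b* averaged 6.70 ± 6.47 and 4.70 ± 3.64. The second identifier named *myhz1.1* in the heart table is *myhz1.1l*, which was at 0 in 8 of 10 wildtype and 6 of 9 mutant hearts.

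limma called 2.96% of all genes higher and 2.4% lower in mutant hearts at 3 dpf, beside 0 and 3 of the 9 muscle genes. Nothing is read from these shares, since the genes were chosen with this comparison known. As a description, the median log2 fold change was -0.52 over the 9 genes, -0.15 over 58 genes of the other muscle lists and 0.08 over all genes. Of those 58 genes 2 were called higher and 3 lower, and 0 of 17 other fast fibre sarcomere genes were called by limma, with *myhz1.2* (4.15 ± 3.43 to 0.910 ± 1.44, -1.35) at the lowest p of 3 genes with an unadjusted p under 0.05. Also not called were *myoz1a* of fast fibres (0.85), *mybpc1* and *tpm2* of slow fibres (-0.71 and -0.43), *casq1b* and *ryr1b* of calcium handling (0.97 and -0.73) and the regulators *six1b* and *mef2ca* (0.58 and -0.23). Cardiomyocyte markers moved in the same hearts: 8 of 19 were called lower and 1 higher, the summed level ran from 1228 to 1840 in wildtype and from 954 to 1333 in mutants, with log2 fold changes of -1.78 for *vmhc* and -1.64 for *ttn.1*, while *myl7* (-0.04) and *cmlc1* (-0.08) were not called. *myl7* and *cmlc1* averaged more normalized counts than *ckma* in both genotypes. Their values, and the summed level that holds them, are therefore subject to the UMI ceiling described below. The part of the cardiomyocyte markers in the values of *acta1b* was not tested.

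**Figure D3:**
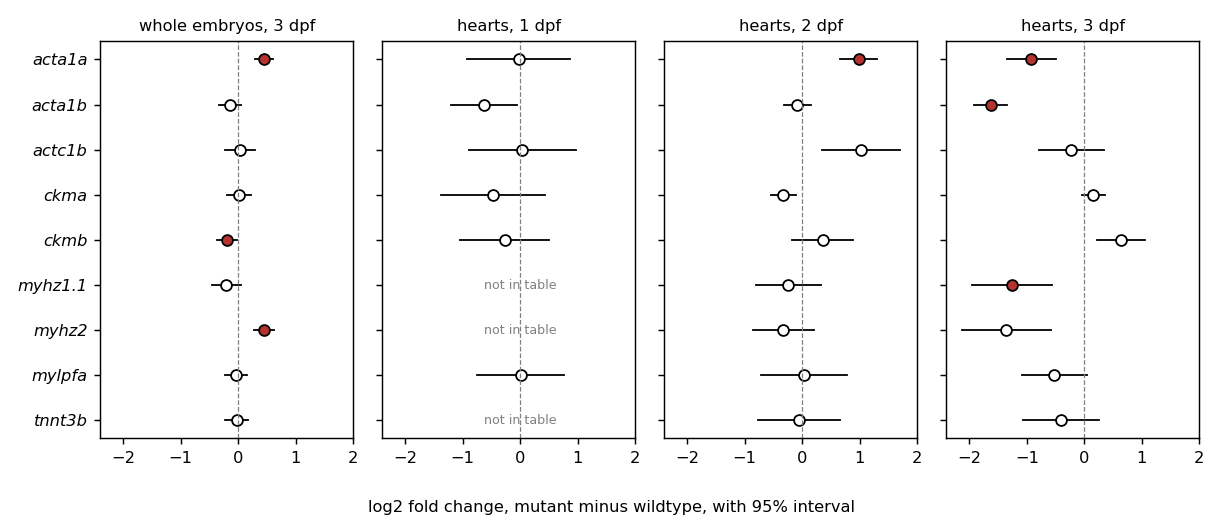
Log2 fold change of the 9 muscle genes, mutant minus wildtype, in whole embryos and in hearts at 3 ages, with 95% intervals; filled points were called by limma at the threshold of that comparison. *acta1a* is at 0.44 in embryos, 0.99 in hearts at 2 dpf and -0.92 at 3 dpf, and *acta1b* was called in hearts at 3 dpf, at -1.63, and in none of the other comparisons shown.

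Some of the 9 genes had unlike log2 fold changes in whole embryos and hearts of 3 dpf, which are different libraries with different protocols. *acta1a* was at 0.44 in embryos and -0.92 in hearts, *myhz2* at 0.45 and -1.35, *ckmb* at -0.20 and 0.64, and *acta1b* at -0.14 and -1.63. The heart value of *myhz2* rested on at most 6 UMIs per heart and was not called, nor was that of *ckmb*. *myhz1.1* was at -0.21 and -1.26, *mylpfa* at -0.04 and -0.52, and *tnnt3b* at -0.03 and -0.40. *ckma* was at 0.01 and 0.16 and *actc1b* at 0.04 and -0.23. These differences between tissues were not tested. 

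To separate genes detected in every heart from the others, the rule asked for at least 3 UMIs in every wildtype heart at 2 and 3 dpf. *acta1a*, *acta1b* and *ckma* met this, with at least 11, 87 and 80 UMIs at 2 dpf and at least 9, 37 and 59 at 3 dpf. *ckmb* missed it with 10 of 13 wildtype hearts at 2 dpf and had 10 of 10 at 3 dpf. *actc1b* (7 of 13 and 9 of 10), *mylpfa* (5 of 13 and 10 of 10), *tnnt3b* (4 of 13 and 7 of 10), *myhz2* (1 of 13 and 7 of 10) and *myhz1.1* (0 of 13 and 7 of 10) were not detected at this level in every wildtype heart. This is a rule on detection in whole hearts and says nothing of where in a heart a gene is used. It follows depth too, since *actc1b* had at least 3 UMIs in 9 of 9 of the deeper mutant hearts at 2 dpf. The coefficient of variation over wildtype hearts at 3 dpf was 19.2% for *ckma*, 23.3% for *acta1b* and 28.2% for *acta1a*. It was 58.2% for *ckmb*, 72.3% for *actc1b*, 91.9% for *myhz2*, 92.5% for *mylpfa*, 96.6% for *tnnt3b* and 101.6% for *myhz1.1*. Part of this spread is counting error, which is larger for genes with few UMIs.

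The level of each of the 9 genes was set against the summed level of 17 other fast fibre genes in the hearts at 3 dpf. Over the 10 wildtype hearts at 3 dpf the level of *mylpfa* rose with this sum (Pearson's r = 0.95 and Spearman's rho = 0.94, permutation tests, p = 5.0e-05 and 0.00019, adjusted over 18 relations 0.0009 and 0.00342), and r was 0.94 without the 2 hearts farthest from the median sum. In the 9 mutant hearts r was 0.84 and rho 0.87 (exact permutation tests, p = 0.00529 and 0.00451, adjusted 0.0238 and 0.0162), with r = 0.97 without the 2 farthest hearts. For *acta1b* the relation did not pass the test in wildtype hearts (r = -0.06, rho = -0.25, permutation tests, p = 0.879 and 0.493, adjusted 0.879 and 0.522, r = -0.16 without the 2 farthest) or in mutant hearts (r = 0.36, rho = 0.53, exact permutation tests, p = 0.343 and 0.148, adjusted 0.386 and 0.216, r = 0.40 without the 2 farthest). *mylpfa* and *acta1b* had the highest and the lowest r in wildtype hearts, and the other genes lay between them. The relation of *actc1b* (r = 0.87), *myhz1.1* (0.79), *tnnt3b* (0.77) and *myhz2* (0.69) was positive, and of these *myhz2* did not pass after adjustment (permutation test, adjusted p = 0.0616). It did not pass either for *ckma* (r = 0.57, rho = 0.65, permutation tests, adjusted p = 0.126 and 0.0888), *acta1a* (r = 0.51, rho = 0.36, adjusted p = 0.199 and 0.374) or *ckmb* (r = 0.45, rho = 0.49, adjusted p = 0.249 and 0.216), and without the 2 farthest hearts r was 0.16, 0.36 and -0.0028. In mutant hearts r was -0.39, 0.49 and 0.19 for *ckma*, *acta1a* and *ckmb*. There *tnnt3b* (r = 0.87), *myhz2* (0.81) and *actc1b* (0.75) passed (exact permutation tests, adjusted p = 0.0201, 0.0446 and 0.0446). *myhz1.1* (r = 0.63) did not pass in mutant hearts (exact permutation test, adjusted p = 0.126). Whether r differed between genes was not tested. The values of a heart share its size factor. The relations were not set against depth. The deepest wildtype hearts, replicates 22 and 23 (82308 and 75844 UMIs), had sums of 14.6 and 15.2. Shallow replicates 15 and 17 (29415 and 27309 UMIs) had 160.4 and 96.8, but replicate 18 (31696 UMIs) had 26.3. In mutants replicate 44, at 91311 UMIs, had the highest sum (74.8). The summed level itself ran from 14.6 to 160.4 in wildtype hearts and from 13.1 to 74.8 in mutants, with wildtype replicate 15 at the top.

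**Figure D4:**
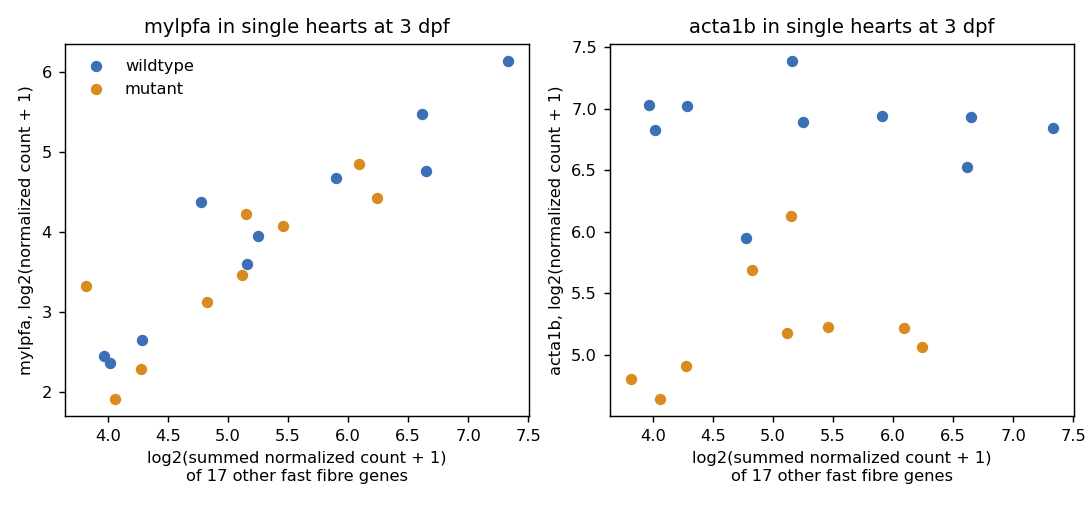
Level of *mylpfa* (left) and *acta1b* (right) against the summed level of 17 other fast fibre genes in single hearts at 3 dpf, both as log2 of normalized counts plus 1; each point is a heart (10 wildtype in blue, 9 *rnf2* mutant in orange). *mylpfa* rises with the sum in both genotypes (r = 0.95 and 0.84), while r is -0.06 and 0.36 for *acta1b*.

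After the mean of each genotype was subtracted, the genes most like *mylpfa* over the 19 hearts at 3 dpf, among 1949 genes, were the fast muscle parvalbumin *pvalb2* (r = 0.90), the calcium pump *atp2a1* (0.89), the fast tropomyosin *tpma* (0.88), *tnnt3b* (0.86) and *actc1b* (0.81). Those most like *acta1b* were *prkar2aa*, a regulatory subunit of protein kinase A (r = 0.75), the AMP-activated kinase subunit *prkag2a* (0.71), the proteasome activator *psme4b* (0.70), *chmp7* (0.67) and the coronin *coro1cb* (0.67). None of these 5 is on the muscle or cardiomyocyte lists. *acta1a* was 17th in likeness to *acta1b* (0.61), and *mylpfa* had an r of 0.04 with it. These are descriptions over 19 hearts that share a normalization.

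The random barcode of the heart libraries had 4 bases, which allows 256 different UMIs per gene and heart, and the abundant muscle genes came near it. *ckma* reached 227 UMIs in a mutant heart at 3 dpf (median 107 in wildtype and 202 in mutants), and *acta1b* reached 238 in a mutant heart at 2 dpf (median 125 and 197). Near the ceiling a further molecule is less likely to be counted, so levels are compressed most where a gene has most UMIs. These were the mutant hearts for *ckma* at both ages and for *acta1b* at 2 dpf, and the wildtype hearts for *acta1b* at 3 dpf (median 95.5 against 49 UMIs). After a correction for barcodes drawn more than once, an alternative that was chosen after seeing the data, the log2 fold change of *ckma* at 3 dpf was 0.65 in place of 0.16 and was called. That of *acta1b* at 2 dpf was 0.43 in place of -0.08 and was not called, although with the number of detected genes as a covariate it was called at 0.41. The lower level of *acta1b* at 3 dpf remained called after the correction, as did both calls of *acta1a*. The corrected counts kept the scaling factors of the uncorrected libraries. Deeper hearts gain more molecules by the correction, so it can raise levels in the deeper mutant hearts. The values of 0.65 and 0.43 carry this limit.

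**Figure D5:**
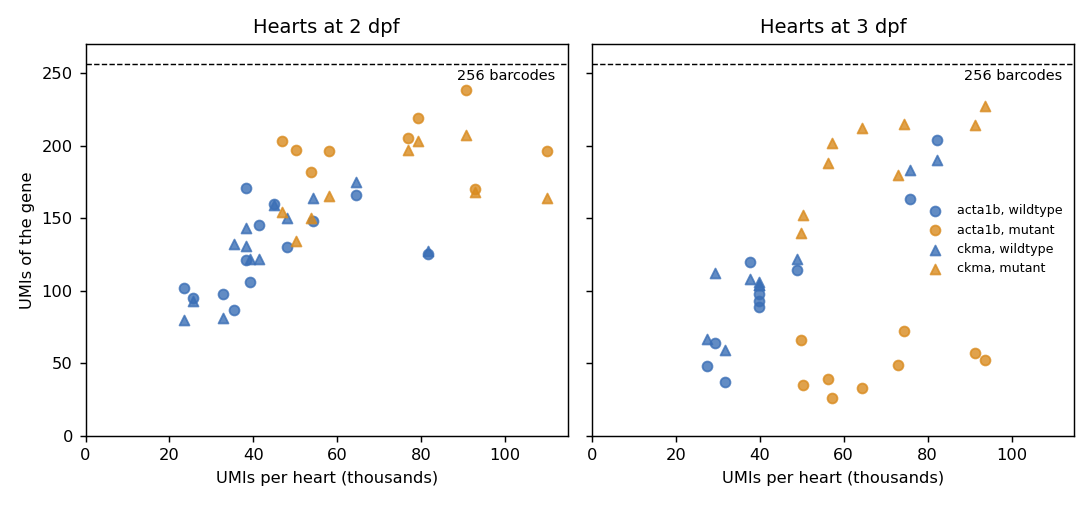
UMIs of *acta1b* (circles) and *ckma* (triangles) against all UMIs of the heart (axis units as labelled), at 2 dpf (left) and 3 dpf (right), wildtype in blue and *rnf2* mutant in orange, with the ceiling of 256 barcodes as a dashed line. At 2 dpf *acta1b* reaches 238 and *ckma* 207 UMIs in mutant hearts, and at 3 dpf *ckma* reaches 227 while *acta1b* stays between 26 and 72 UMIs in mutants.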

How the data were processed

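RNA of whole embryos and single hearts was analysed. The authors mapped embryo reads with STAR 2.5.2b to GRCz10, counted them per Ensembl gene and normalized with DESeq2. Heart UMIs were counted with the CEL-seq pipeline and normalized with Monocle per age. What the authors deposited is a signal: each count was divided by a factor of its library. The deposited columns of 3 hearts are listed here as a score, although their numbers are of the same kind. Of all values, 100% were whole multiples of 1 step (tolerance 0.01 of a count) in each library, so whole counts were recovered. On these, edgeR 4.0.16 called 12657 genes in embryos and 1, 98 and 773 in hearts at 1, 2 and 3 dpf, where limma called 12703 and 6, 70 and 601. The factors of RUVSeq are not in the embryo values.

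A pseudocount of 1 was added and log2 was taken, and limma 3.58.1 was run in R 4.3.3. A fold change on this scale understates the change of low genes. In embryos, genes averaging 5 or more normalized counts were tested, plainly and against a log2 fold change of 1, and called up to an adjusted p (Benjamini-Hochberg) of 0.1. Hearts were tested per age over all listed genes at an adjusted p under 0.01. In simulated embryo data of 22685 genes the plain test recovered 95% of genes with a log2 fold change of 1. In simulated hearts of 3 dpf (11221 genes) it recovered 59%. The changed genes were drawn from genes with an expected count of at least 20 in the median library. No barcode ceiling was simulated. These shares therefore do not hold for genes with few UMIs or for genes near the ceiling. Nothing says which pools or hearts share a clutch, so p-values measure the spread between these samples only. The alternatives were other pseudocounts (0.5 and 5), filters, edgeR, DESeq2 1.42.0, another scaling, fewer wildtype pools, the replicate number as a block, a covariate, thinning to the smallest heart (20 draws), a barcode correction and each library left out.

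The muscle genes and the lists were chosen with earlier results of these data known. Genes are named from the heart tables and RefSeq annotation, 26484 of 30029 identifiers in embryos. In addition to the 9 genes and *rnf2*, the text names the 2 genes with the lowest p of each other muscle list per comparison, and for *acta1b* and *mylpfa* the 5 genes most like them. Of 83 genes on the other muscle lists 64 were matched by name. Marker lists of other tissues were read as counts of called genes. Peak lists, coordinates and sequences were not used here.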

Additional observations from a re-analysis of the deposited data

Results flagged for a closer look

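Each gene was looked at in each group of 4 to 10 samples, which left out the wildtype hearts at 2 dpf. Of 57 such combinations of a gene and a group, 9 had a sample far from the others. This was judged by its gap to the nearest value against the range of the group (Dixon's test). By chance about 5% would show this if the combinations were independent. Genes of the same library are not independent, so 9 of 57 is not read as an excess. In mutant embryos replicate 6 was the highest for *ckma* (48216 normalized counts, the next pool at 38516) and for *tnnt3b* (31806, the next at 26238). In wildtype hearts at 1 dpf replicate 9 was the highest for *ckmb* (11.5, the next at 1.82) and *mylpfa* (9.26, the next at 1.97). In mutant hearts at 2 dpf replicate 31 was the highest for *ckmb* (14.2, the next at 8.82). In wildtype hearts at 3 dpf replicate 15 was the highest for *actc1b* (30.3, the next at 15.2), *ckma* (199.6, the next at 149.8), *ckmb* (55.2, the next at 26.3) and *tnnt3b* (23.2, the next at 10.6). The same heart had the highest summed levels of fast fibre genes (160.4), slow fibre genes (92.7) and calcium handling genes (185.3) of its group, while its *acta1b* (114.0) lay within the group. Without it *ckmb* at 3 dpf was called and *myhz1.1* was not.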

How the results depend on the processing

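Genes called among the 9 and among the other muscle lists are compared here with the values in the text, which are 3 and 33 in embryos (plain test), and for hearts 0 and 0 (1 dpf), 1 and 2 (2 dpf), 3 and 5 (3 dpf). At 2 dpf, with the number of detected genes as a covariate, 2 of the 9 were called, and with thinned hearts 0 of the 9 and 0 of the other muscle genes (limma, median of the draws). The other muscle genes called at 2 dpf were 1 with a pseudocount of 5, with genes of a mean of at least 1 and with the barcode correction. At 3 dpf 5 of the 9 were called by edgeR, 1 with the covariate and 1 with thinned hearts, where 2 of the other muscle genes were called. With each library left out in turn, the calls among the 9 ranged from 2 to 4 in embryos, from 0 to 0 at 1 dpf, from 1 to 2 at 2 dpf and from 2 to 4 at 3 dpf, and those among the other muscle genes from 31 to 36 in embryos, from 0 to 0 at 1 dpf, from 1 to 4 at 2 dpf and from 3 to 5 at 3 dpf. Where a gene of the 9 was called in the main fit of a comparison, its direction there did not change under any setting. Genes not called in the main fit did change direction, among them *acta1b* and *ckma* at 2 dpf. Wildtype and mutant embryos shared 4 replicate numbers and hearts at 1 dpf shared 8, but same-numbered libraries did not deviate together (correlations from -0.16 to 0.03 and from -0.08 to 0.04). The numbers were therefore not taken as pairs in the main fits. This does not show that same-numbered libraries share no clutch or batch. The fit with the replicate number as a block called 3 of the 9 in embryos, *myhz1.1* in place of *ckmb* (adjusted p = 0.0761 and 0.154), with 30 of the other muscle genes, and 0 of both at 1 dpf; the same libraries without the block gave 3 and 28. Over all genes, calls at 2 dpf were 70 in the text's test, 18 with the covariate, 98 by edgeR, 32 by DESeq2 and 6 with thinned hearts, and at 3 dpf 601, 397, 773, 548 and 226.5. Against a fold, embryos had 434 calls by limma and 701 by edgeR. Depth limits most the genes with few UMIs: at 2 dpf *myhz1.1* reached at most 2 UMIs in a heart.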
